A study of Mus musculus with 12 samples.

Results

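Beta-defensin genes were read out in the epididymal white adipose tissue (eWAT) of mice, the abdominal fat pad that is attached to the epididymis. The members are all rows of the count table whose symbol is Defb followed by a number, which gave 43 of 27179 genes, 42 of them annotated as protein-coding and Defb44-ps as a transcribed pseudogene. The study compared 6 male C57BL/6J mice injected into the peritoneum with sodium epinephrine at 0.5 mg/kg with 6 male C57BL/6J mice injected with saline (vehicle). All were kept on chow and fat was collected 1 h after the injection. The listed ages are 18 to 23 weeks for epinephrine and 12 to 17 weeks for vehicle, 1 week apart from each sample to the next, so listed age and treatment cannot be told apart. Libraries are named by group and replicate number, and held between 24821601 and 34405433 reads assigned to genes. The titles call the samples of a group biological replicates, so p-values measure the spread between mice as labelled. Vehicle 2 to 5 share nearly the same make-up of beta-defensin reads at very different levels, and every fit here treats them as separate mice. Vehicle 2, Epinephrine 1 and Epinephrine 2 stand far above the rest, so the test is also given without these 3 libraries.

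Beta-defensins are small, positively charged, secreted peptides held together by disulfide bonds between conserved cysteines. Some, such as the product of Defb1, coat mucosal and kidney epithelia and kill or restrain bacteria. A large part of the family in rodents is transcribed in the epithelium of the epididymis, segment by segment along the duct and under control of androgens. There the peptides are secreted into the lumen and bind maturing sperm. Because the tissue was profiled in bulk, fewer cells of a type and less RNA per cell cannot be told apart.

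Of the 43 members, 40 had at least 1 read in some library and 3 (Defb4, Defb7 and Defb46) had none in any of the 12. A count of 0 allows up to 3 reads, which is between 0.0952 and 0.132 CPM (counts scaled to TMM-adjusted library size) in epinephrine libraries and between 0.0884 and 0.109 CPM in vehicle libraries. Such limits and the intervals given here cover counting error only. Most other members were seen in some libraries and not in others. With epinephrine, 39, 37, 35, 27, 25 and 19 members had a read in libraries 1 to 6, and with vehicle 34, 36, 36, 29, 20 and 11 did. The groups overlapped in part: Epinephrine 1 and 2 lay above all vehicle libraries and Vehicle 6 below all epinephrine libraries. Counting only members with at least 10 reads, the lowest, median and highest were 5, 22.5 and 34 with epinephrine and 2, 22.5 and 32 with vehicle. Depth changed little here: thinned to the smallest library total, Vehicle 6, the deepest library, was expected to show 10.6 members. There were 11 members with a read in every library, and Defb20 and Defb48 were the 2 with at least 10 reads in each.

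**Figure D1:**
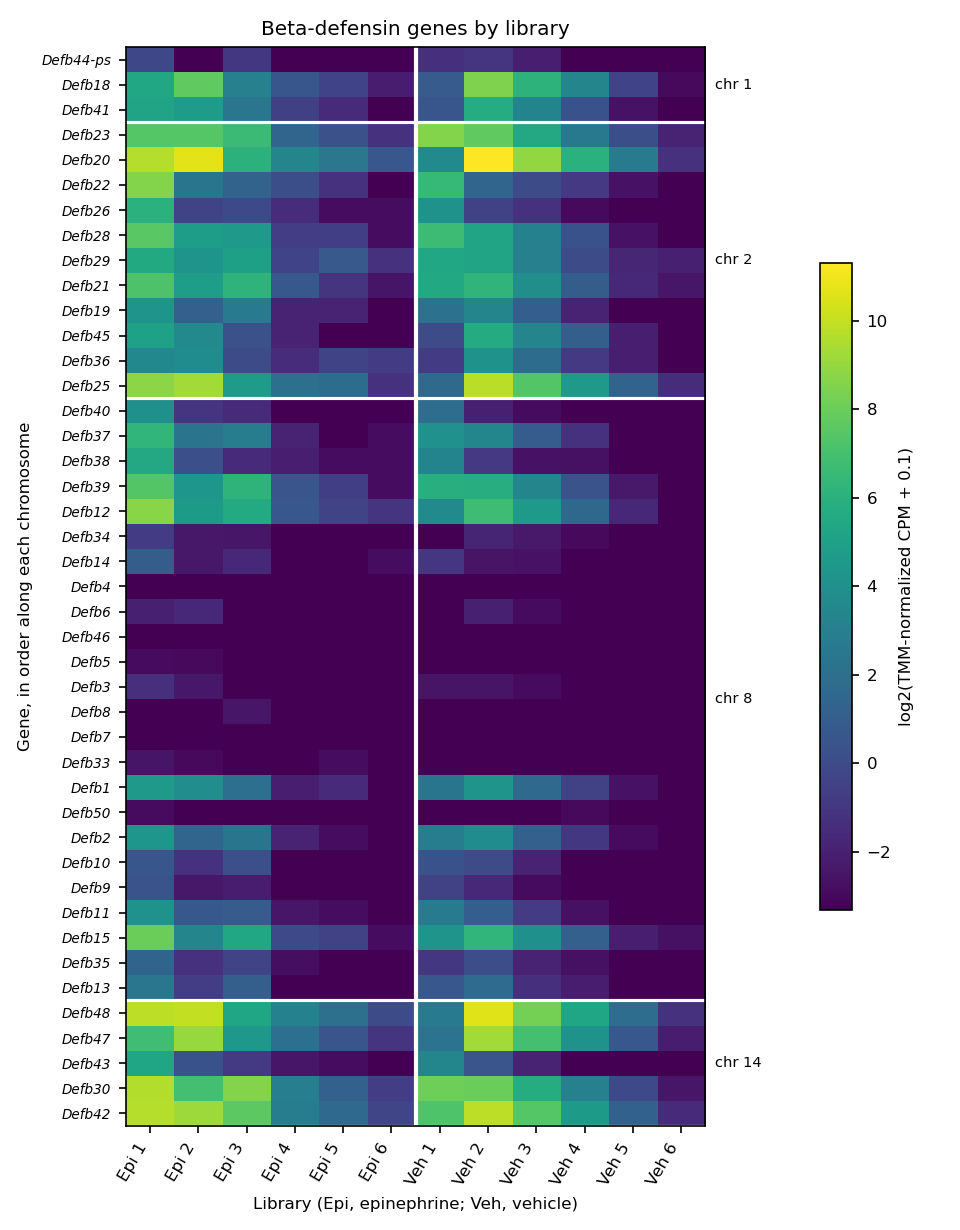
Level of each of the 43 beta-defensin genes (rows, in order along chromosomes 1, 2, 8 and 14) in each library (columns, epinephrine 1 to 6 left of vehicle 1 to 6), as log2 of TMM-normalized CPM plus 0.1. On chromosomes 2 and 14, Defb20, Defb25, Defb42 and Defb48 are brightest in Epinephrine 1 and 2 and Vehicle 2. Others differ, such as Defb22 and Defb26, which are brightest in Epinephrine 1 and Vehicle 1. Many chromosome 8 rows are dark throughout, and Epinephrine 6 and Vehicle 6 are dark on most rows, with 19 and 11 members detected.

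Summed over the family, the members took between 0.000602% (95% Wilson interval 0.000514 to 0.000704) and 0.630% (0.627 to 0.633) of counts in epinephrine libraries. In vehicle libraries they took between 0.000183% (0.000143 to 0.000234) and 0.866% (0.862 to 0.870). The summed level was 6169, 5192, 1184, 55.4, 27.9 and 6.27 CPM in Epinephrine 1 to 6, and 1312, 8002, 1561, 213, 19.9 and 1.86 CPM in Vehicle 1 to 6. The highest library thus stood 983-fold over the lowest with epinephrine and 4309-fold over the lowest with vehicle, and the ranges overlapped, with Vehicle 2 above all epinephrine libraries and Vehicle 6 below them. The median was 620 CPM with epinephrine and 763 CPM with vehicle. It was 55.4 CPM without Epinephrine 1, 2 or 3 and 1184 CPM without Epinephrine 4, 5 or 6, and 213 CPM without Vehicle 1, 2 or 3 and 1312 CPM without Vehicle 4, 5 or 6.

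The 12 libraries had the same order for the family as for 22 genes of the epididymal epithelium that are no beta-defensins. That list holds Gpx5, a secreted glutathione peroxidase, Adam7, a membrane protein passed to sperm, the lipocalins Lcn5, Lcn6, Lcn8, Lcn9 and Lcn10, and others. After its values were seen it was taken without Sult1e1, a sulfotransferase gene that was at 66.8 to 97.1 CPM in epinephrine and 37.4 to 110 CPM in vehicle libraries and so did not follow the rest. The lowest, median and highest sums of the 22 genes were 35.1, 2607 and 35358 CPM with epinephrine and 11.0, 3324 and 45544 CPM with vehicle. For every 1000 reads of these genes there were 174, 191, 240, 190, 196 and 178 beta-defensin reads in Epinephrine 1 to 6. In Vehicle 1 to 6 there were 244, 176, 168, 170, 180 and 168. The highest values were in Epinephrine 3 and Vehicle 1. This ratio rests on leaving out Sult1e1. With all 23 markers it was 174, 190, 236, 143, 124 and 48.1 in Epinephrine 1 to 6 and 240, 176, 166, 160, 102 and 15.3 in Vehicle 1 to 6, lowest in Epinephrine 6 and Vehicle 6, where Sult1e1 gave most of the marker reads, while the order of the 12 libraries stayed the same. Fat identity markers ran the other way at the extremes: 10 adipocyte markers, all detected in all libraries, summed to 18891 to 42377 CPM with epinephrine and 13853 to 44528 CPM with vehicle, lowest in Epinephrine 1 and Vehicle 2. Of the full list of 23 epididymal markers, 2 were at 0 in Epinephrine 4, 2 in Epinephrine 6, 2 in Vehicle 5 and 3 in Vehicle 6. What part the amount of epididymal RNA has in the beta-defensin levels was not tested.

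**Figure D2:**
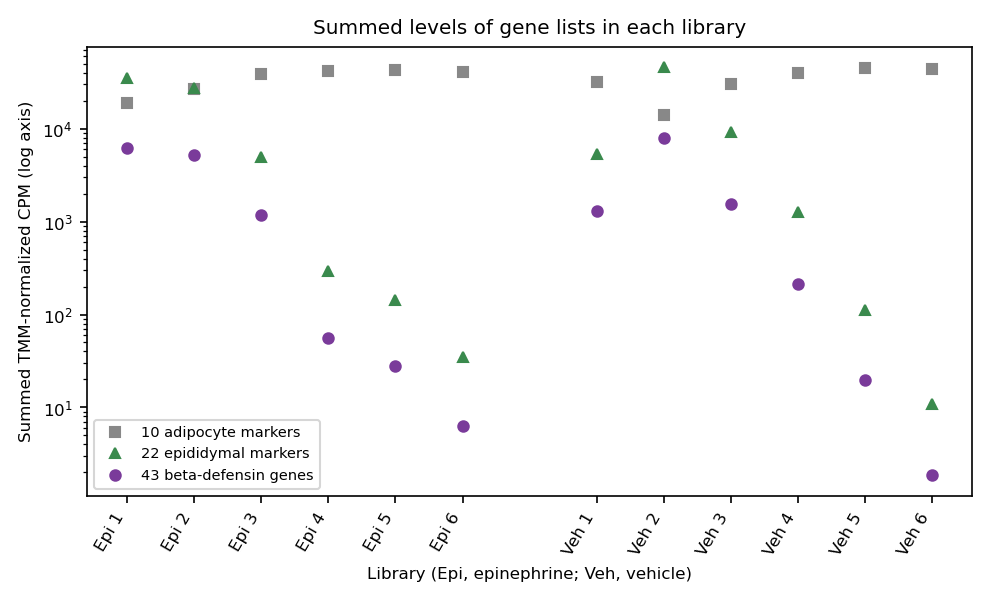
Summed TMM-normalized CPM (log axis) of the 43 beta-defensin genes, 22 epididymal epithelium markers and 10 adipocyte markers in each library, with epinephrine 1 to 6 left of vehicle 1 to 6. The beta-defensin and epididymal points (Sult1e1 left out) have the same order over the 12 libraries, whereas the adipocyte points stay between 13853 and 44528 CPM.

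Per length, Defb48 and Defb20 led the family. Averaged over the 12 libraries, Defb48 was at 735 CPM per kilobase of gene model, Defb20 at 694, Defb25 at 622, Defb42 at 393 and Defb47 at 336, while Defb1 was at 6.29. By reads alone the first place went to Defb20, which had 166334 of them. Defb20 was at 1.45, 39.3 and 1700 CPM (lowest, median, highest) in epinephrine libraries and at 0.324, 39.4 and 2553 CPM in vehicle libraries. Defb48 was at 0.925, 24.5 and 1023 CPM with epinephrine and at 0.324, 23.3 and 1575 CPM with vehicle. Both were highest in Epinephrine 2 and Vehicle 2 and lowest in the number 6 library of each group. Defb42, of which the rodent peptide is secreted by the epididymis, was at 0.724, 102 and 818 CPM with epinephrine and at 0.236, 90.01 and 940 CPM with vehicle. Defb30 was at 0.523, 64.6 and 785 CPM with epinephrine and at 0.0884, 31.1 and 277 CPM with vehicle. Unlike Defb20, Defb30 was highest in Epinephrine 1 and in Vehicle 1, with 382 CPM in Epinephrine 3.

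The members lie in 4 clusters, and their coordinates are those of GRCm38.p6 in RefSeq. Chromosome 8 holds 24 of them (positions 18974914 to 21948622), chromosome 2 holds 11 (152459055 to 152623053), chromosome 14 holds 5 (62977524 to 63048606) and chromosome 1 holds 3 (18210053 to 18265138). All members of chromosomes 1, 2 and 14 had reads, as did 21 of the 24 of chromosome 8. The cluster with the most genes gave few of the reads: chromosome 8 held 17.3% of beta-defensin reads in Epinephrine 1 (95% Wilson interval 17.1 to 17.5) and 1.58% in Epinephrine 2 (1.52 to 1.64). In Vehicle 1 it held 10.8% (10.5 to 11.2) and in Vehicle 2 3.67% (3.59 to 3.75). Chromosome 2 held between 28.8% and 50.4% of beta-defensin reads in epinephrine libraries and between 48.5% and 54.4% in vehicle libraries. Defb14 and Defb3, which belong to the antibacterial members of skin and airway on chromosome 8, had 75 and 16 reads over all 12 libraries. Defb1 was at 22.9, 14.1, 3.95, 0.132, 0.239 and 0 CPM in Epinephrine 1 to 6 and at 5.10, 18.8, 3.17, 0.629, 0.0651 and 0 CPM in Vehicle 1 to 6. Thus this member too, known from other epithelia, was high in the libraries where the epididymal members were high.

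Which members made up the family's reads differed between libraries. Defb20 made up 32.7% of beta-defensin reads in Epinephrine 2 (95% Wilson interval 32.51 to 32.97), 13.3% in Epinephrine 1 (13.2 to 13.5) and 5.78% in Epinephrine 3 (5.51 to 6.06). In Vehicle 2 and Vehicle 3 it made up 31.9% (31.7 to 32.1) and 32.0% (31.6 to 32.4), but in Vehicle 1 0.944% (0.849 to 1.05). Vehicle 1 was led by Defb23 at 29.6% (29.2 to 30.1) and Defb30 at 21.1% (20.7 to 21.5), and Epinephrine 3 by Defb30 at 32.3% (31.8 to 32.9). Defb42 differed less between libraries, with 10.9% to 16.7% in epinephrine libraries and 11.1% to 12.7% in vehicle libraries. Defb22, the mouse counterpart of a primate gene whose product coats sperm, made up 6.39% in Epinephrine 1 (6.27 to 6.51) and 0.0966% in Epinephrine 2 (0.0826 to 0.113). It made up 6.84% in Vehicle 1 (6.59 to 7.11) and 0.0334% in Vehicle 2 (0.0266 to 0.0419).

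**Figure D3:**
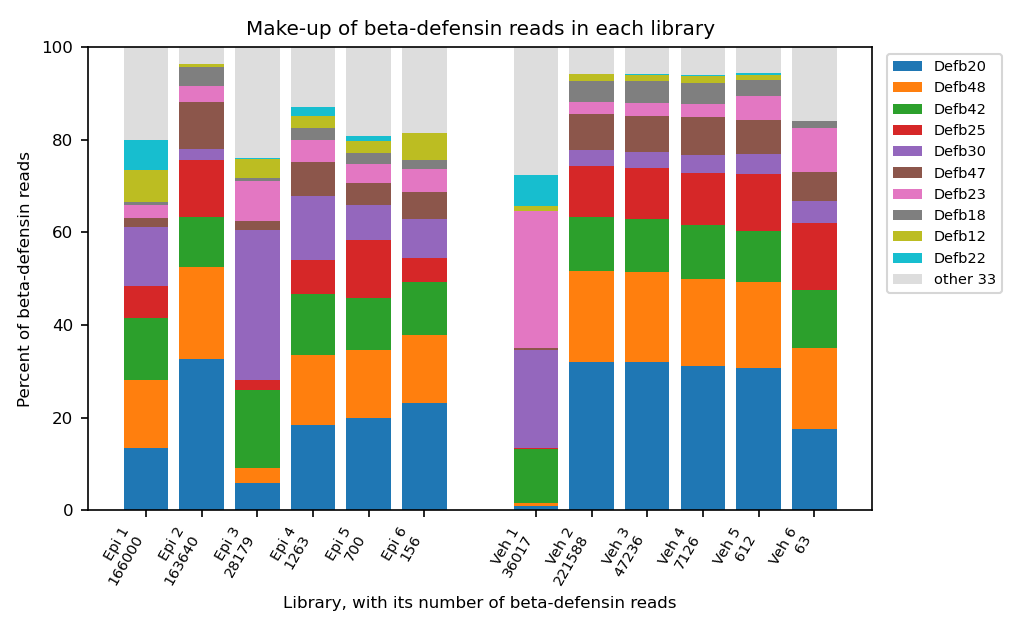
Percent of all beta-defensin reads that came from each of the 10 members with the highest mean CPM, and from the other 33 together, in each library (epinephrine left, vehicle right), with the number of beta-defensin reads under each bar. Epinephrine 2 and Vehicle 2 to 5 share a make-up led by Defb20 at 30.7% to 32.7%, and Vehicle 1 and Epinephrine 3 stand apart.

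Reads of 29 members that had at least 50 reads in Vehicle 1 and 2 together showed how far the profiles lie apart. Between these 2 libraries, 13 members had more reads in Vehicle 1 and 16 had more in Vehicle 2, although Vehicle 2 held 221588 beta-defensin reads and Vehicle 1 36017. At one end, Defb22 had 2464 reads in Vehicle 1 and 74 in Vehicle 2, Defb26 had 494 and 18, and Defb38 and Defb40 had 269 and 12 and 101 and 4. At the other end, Defb25 had 88 reads in Vehicle 1 and 24493 in Vehicle 2, Defb48 had 179 and 43625, and Defb18 had 48 and 10027. Epinephrine 1 held both kinds, with 10603 reads of Defb22, 1758 of Defb26, 24666 of Defb48 and 11657 of Defb25. Of the 13 members with more reads in Vehicle 1 than in Vehicle 2, 12 also had more in Epinephrine 1 than in Epinephrine 2, Defb23 being the exception with 4796 and 5469. Of the 16 with more in Vehicle 2, however, 6 had more in Epinephrine 2 than in Epinephrine 1, so 22 of all 29 had more reads in Epinephrine 1. Other epididymal genes differed between the same libraries. Gpx5 was at 10625, 9362 and 358 CPM in Epinephrine 1 to 3 and at 20.1, 18337 and 3699 CPM in Vehicle 1 to 3. Lcn5 was at 3831, 426 and 1755 CPM in Epinephrine 1 to 3 and at 1280, 1487 and 300 CPM in Vehicle 1 to 3. Crisp1, a sperm-binding secretory gene, was at 3012, 392 and 55.5 CPM in Epinephrine 1 to 3 and at 1137, 522 and 115 CPM in Vehicle 1 to 3. These genes are known to differ in the stretch of the duct that transcribes them. Whether different stretches of duct gave the different profiles was not tested.

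The upstream bases of 4 members are shown because they stand at the ends of that contrast, Defb20 and Defb48 with the most reads in Vehicle 2 and Defb22 and Defb26 with the highest read ratio of Vehicle 1 to Vehicle 2 among members with an entry. Each is the 250 bases before the annotated start in RefSeq (GRCm38.p6), 5′ to 3′ on the strand of the gene: chr2:152476813-152477062 on the plus strand, and chr14:62984511-62984760, chr2:152490139-152490388 and chr2:152511737-152511986 on the minus strand. Capitals mark AGAACA or TGTTCT, the same hexamer on either strand that is the core of androgen receptor binding elements, and TATAAA or TTTATA, the TATA box.
Defb20: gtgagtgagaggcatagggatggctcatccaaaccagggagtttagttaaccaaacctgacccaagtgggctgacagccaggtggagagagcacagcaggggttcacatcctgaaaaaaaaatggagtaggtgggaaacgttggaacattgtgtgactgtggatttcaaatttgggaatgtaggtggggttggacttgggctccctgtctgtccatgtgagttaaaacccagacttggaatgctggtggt
Defb48: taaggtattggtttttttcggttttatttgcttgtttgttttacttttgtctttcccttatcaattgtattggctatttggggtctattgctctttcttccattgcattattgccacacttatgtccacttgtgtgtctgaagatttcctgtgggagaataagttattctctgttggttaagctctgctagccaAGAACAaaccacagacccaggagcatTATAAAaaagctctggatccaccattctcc
Defb22: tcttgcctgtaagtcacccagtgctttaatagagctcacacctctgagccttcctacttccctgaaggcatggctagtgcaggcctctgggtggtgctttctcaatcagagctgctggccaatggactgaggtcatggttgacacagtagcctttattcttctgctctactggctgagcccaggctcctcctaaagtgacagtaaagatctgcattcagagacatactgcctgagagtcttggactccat
Defb26: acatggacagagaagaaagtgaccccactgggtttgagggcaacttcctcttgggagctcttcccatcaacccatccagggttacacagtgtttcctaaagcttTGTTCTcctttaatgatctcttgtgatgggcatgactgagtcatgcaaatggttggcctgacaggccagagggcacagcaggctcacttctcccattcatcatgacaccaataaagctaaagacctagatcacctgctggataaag

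Defb48 has 1 such hexamer, starting 56 bases before the start, and a TATA box starting 30 bases before it. Defb26 has 1 hexamer, starting 146 bases before the start, and Defb20 and Defb22 have neither motif in this window. Over the 29 members with an entry, 14 (48.3%) hold AGAACA or TGTTCT, against 16.1% of 32851 promoter windows of the same length. The TATA box is found in 5 of 29 (17.2%), against 12.4% of all. The cyclic AMP response element TGACGTCA, through which adrenergic signals act on many genes, is in 0 of 29, against 1.55% of all, and its core TGACG or CGTCA is in 7 (24.1%), against 17.8%. These matches are letters in a window and do not show that a factor binds there. The 14 members include Defb46, Defb8 and Defb3, which had 0, 2 and 16 reads over all libraries. The members are related genes, so their windows may not be independent, and the windows compared were not matched for base composition.

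Vehicle 3, 4 and 5 had nearly the same beta-defensin make-up as Vehicle 2 at lower levels. Among the 21 members with at least 100 reads in Vehicle 2, Vehicle 3 had between 0.174 (Defb2) and 0.246 (Defb28) reads for each read in Vehicle 2, with a median of 0.214. The make-up of Vehicle 3 and Vehicle 2 differed in 0.983% of beta-defensin reads, the smallest difference of all 66 pairs of libraries, and that of Vehicle 4 and Vehicle 2 in 2.18%. Vehicle 4 had between 0.129 and 0.230 reads per read in Vehicle 3 over 17 members, with a median of 0.146. Vehicle 5 had between 0.0631 and 0.160 reads per read in Vehicle 4 over 8 members, with a median of 0.0848. The epididymal markers other than Sult1e1 kept about the same ratios, with medians of 0.225 for Vehicle 3 to Vehicle 2, 0.152 for Vehicle 4 to Vehicle 3 and 0.0810 for Vehicle 5 to Vehicle 4. Adipocyte markers did not, since Vehicle 3 had 1.98 to 2.85 reads per read in Vehicle 2 and Vehicle 4 had 1.27 to 1.55 reads per read in Vehicle 3. The shared ratios thus held for the beta-defensins and the epididymal markers and not for the adipocyte markers.

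Other pairs gave wider ranges, within groups as well as between them. Epinephrine 1 had between 0.163 (Defb18) and 67.1 (Defb22) reads per read in Epinephrine 2 over 20 members, and Vehicle 1 between 0.00359 (Defb25) and 2.80 (Defb28) reads per read in Vehicle 2 over 21. Epinephrine 1 had between 0.449 (Defb23) and 138 (Defb48) reads per read in Vehicle 1 over 22 members, with a median of 4.28, and 46.9% of beta-defensin reads differed in make-up. Epinephrine 2 had between 0.148 (Defb15) and 0.968 (Defb47) reads per read in Vehicle 2 over 21 members, with a median of 0.592, and 5.41% of beta-defensin reads differed in make-up. Within the epinephrine group the closest make-ups were those of Epinephrine 4 and 5, at 16.2%, with 1263 and 700 reads. The make-up of Epinephrine 2 differed from that of Vehicle 3 in 5.30% of beta-defensin reads, and that of Vehicle 5 in 5.84%. Why the make-ups of Vehicle 2 to 5 and Epinephrine 2 are this alike was not tested.

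**Figure D4:**
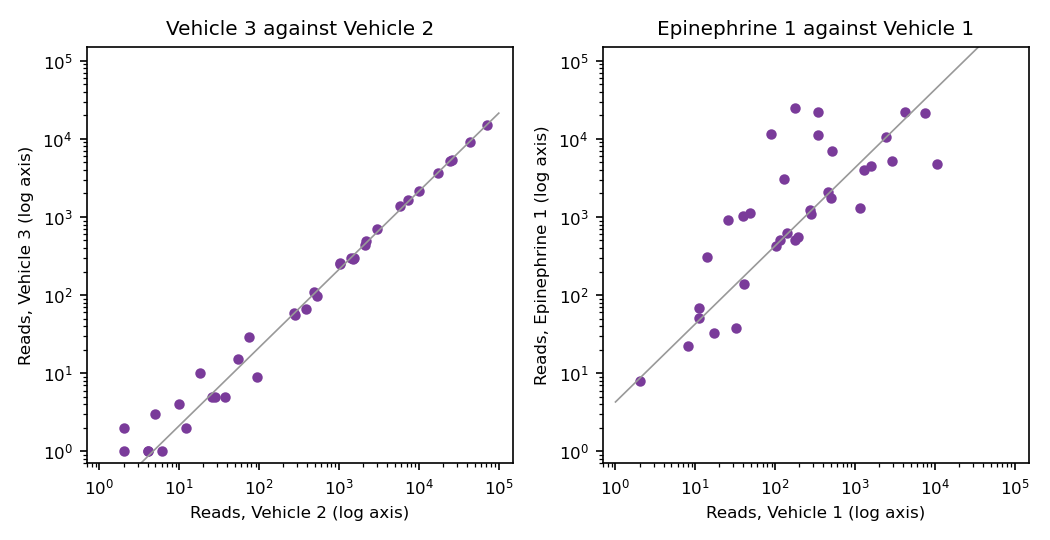
Reads of each beta-defensin gene in Vehicle 3 against Vehicle 2 (left) and in Epinephrine 1 against Vehicle 1 (right), both axes logarithmic, for members with a read in both libraries; the grey line is the median ratio over members with at least 100 reads on the horizontal axis. Among members with at least 100 reads on the horizontal axis, the left points keep to ratios of 0.174 to 0.246 and the right points scatter from 0.449 to 138.

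The comparison of interest asked whether epinephrine changed these transcripts within 1 h. None of the members tested passed. Of the 43 members, 23 passed the filter on low counts, which asks for roughly 10 reads in at least 6 libraries, 17 had reads but did not pass it (2 to 2331 reads in all) and 3 had none. Over all genes, edgeR called 6.23% of 16175 at an adjusted p under 0.05, 2.65% higher and 3.58% lower with epinephrine. Among the 23 members 0 were called higher and 0 lower, 0 had an unadjusted p under 0.05 (17.2% of all genes did), and in 0 did the groups not overlap (4.79% of all genes). DESeq2, limma-voom with sample weights and limma on the deposited VST values also called 0 members, where they called 10.2%, 15.6% and 4.33% of all genes. Of the named members, Defb22 and Defb11 got no adjusted p from DESeq2, so it could not call them. The smallest adjusted p in edgeR was 0.742. The median log2 fold change of the 23 members in edgeR was 0.32, with 18 above and 5 below 0. Over all genes tested it was -0.00059, with 8061 above and 8114 below 0. With limma-voom 6 members were above and 17 below 0, with a median of -0.59.

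The spread between mice of 1 group sets how little could be seen. The standard error of a member's log2 fold change was between 1.42 and 2.14, with a median of 1.73, against a median of 0.18 over all genes. The biological coefficient of variation, the relative spread between mice after counting error, had a median of 1.87 for members and 0.25 for all genes. These errors are those of the fit without a replicate block. The absence of calls does not show that epinephrine leaves these genes alone.

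Defb22 had the highest fitted change. It was at 394, 5.01, 2.39, 1.05, 0.319 and 0 CPM in Epinephrine 1 to 6 and at 89.8, 2.67, 0.958, 0.449, 0.0651 and 0 CPM in Vehicle 1 to 6 (log2 fold change 2.10, SE 2.14, edgeR adjusted p = 0.748). The groups overlapped, and its high libraries were those numbered 1 in both. The labels do not say that libraries of the same number belong together. Paired by replicate number all the same, Defb22 was higher with epinephrine in 5 of 6 pairs and at 0 in both libraries of the other. This count was made for Defb22 alone, with no share over all genes to set beside it. With the replicate number as a block the edgeR adjusted p of Defb22 was 0.0232 (log2 fold change 1.499), and it was then the 1 of 23 members called, where 4.64% of all genes were. In that blocked fit, leaving out the libraries of 1 number at a time gave log2 fold changes of 1.29 to 1.77, called without number 2 or 6 (edgeR adjusted p = 0.0204 and 0.0385) and not called without number 1, 3, 4 or 5 (edgeR adjusted p = 0.056, 0.0888, 0.0899 and 0.076). Over all genes, the full blocked fit called 385 higher and 365 lower of 16175. Without number 1, 2 or 6 it called 562, 389 and 209 higher and 537, 185 and 81 lower. Without number 3, 4 or 5 it called 183, 172 and 192 higher and 47, 27 and 31 lower. Calls were thus lost over all genes there, and the lost call is not particular to Defb22. Without the block, the log2 fold change was -3.14 without Epinephrine 1 and 6.36 without Vehicle 1, which each leave number 1 in 1 group alone. Defb12 was at 0.362, 13.2 and 422 CPM (lowest, median, highest) with epinephrine and at 0, 7.72 and 108 CPM with vehicle (log2 fold change 1.77, SE 1.77, edgeR adjusted p = 0.742). Its 2 highest libraries were Epinephrine 1 and Vehicle 2. Defb12 shares 97.5% of 202 aligned transcript bases with Defb35, so the division of reads between these 2 is uncertain. Likewise Defb15 and Defb34 share 91.1% of 247 bases and Defb10 and Defb11 90.3% of 299.

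All 23 members tested had fitted changes smaller than their errors, those with the most reads included. Defb20 averaged 435 ± 698 CPM with epinephrine and 523 ± 1013 CPM with vehicle (SD, n = 6 each). The fitted log2 fold change was -0.27 with an SE of 1.88 (edgeR adjusted p = 0.979). Defb48 averaged 332 ± 495 CPM with epinephrine and 321 ± 625 CPM with vehicle (SD, n = 6 each; log2 fold change 0.05, edgeR adjusted p = 0.997). In both, 1 SD exceeded the mean. Defb42, Defb25 and Defb47 had log2 fold changes of 0.30, 0.02 and -0.20, and Defb30 one of 1.11 (SE 1.73, edgeR adjusted p = 0.869). Defb18, with -0.72, and Defb23, with -0.51, were the lowest. Defb1 averaged 6.89 ± 9.53 CPM with epinephrine and 4.64 ± 7.25 CPM with vehicle (SD, n = 6 each). The fitted log2 fold change was 0.58 with an SE of 1.55 (edgeR adjusted p = 0.936). Defb37, Defb15, Defb11 and Defb39, the others with the smallest p, had log2 fold changes of 1.64, 1.44, 1.31 and 1.07 (edgeR adjusted p between 0.773 and 0.872). Without Epinephrine 1, 22 of the 23 members tested had a log2 fold change below 0, with a median of -0.58, and without Vehicle 2 22 of 23 were above 0, with a median of 1.93. Without Vehicle 2, Epinephrine 1 and Epinephrine 2 together, 20 members were tested, 0 were called (11.2% of all genes were) and the median was -0.70. Within the libraries numbered 1 to 3, 30 members were tested with a median of 0.62, but 0% of all genes were called there, so 0 called members say nothing about the family. Within those numbered 4 to 6, 0 of 14 members were called (median -0.73) and 8.39% of all genes. With the mean log2 CPM of the epididymal list as a covariate, 1 of 23 was called, Defb45, as lower with epinephrine (edgeR adjusted p = 0.0409), where 10.5% of all genes were called, and the median log2 fold change was -0.31.

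**Figure D5:**
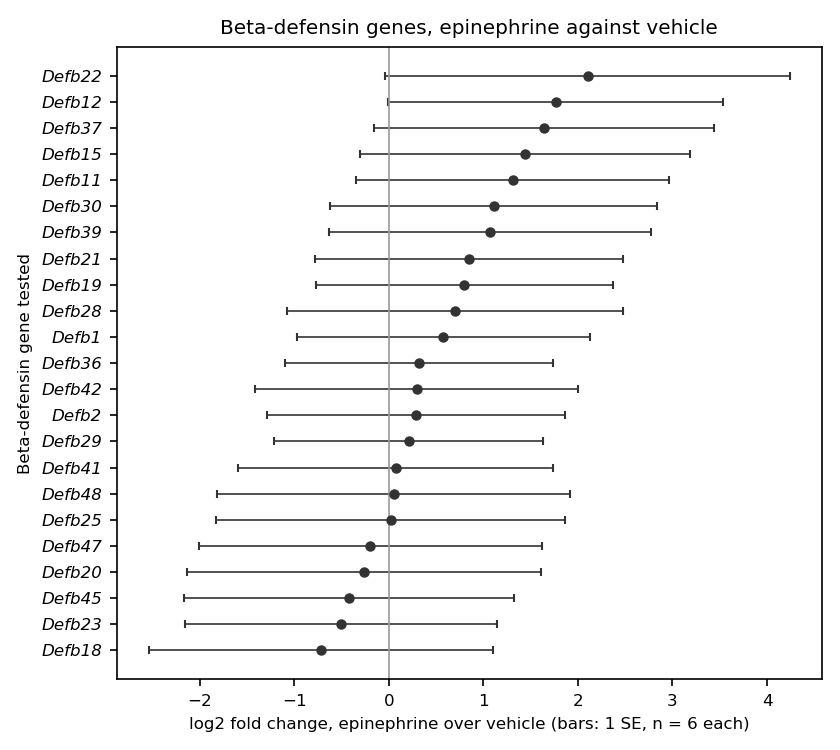
Log2 fold change of epinephrine over vehicle for the 23 beta-defensin genes that passed the filter on low counts, from Defb18 at -0.72 to Defb22 at 2.10, with bars of 1 SE (edgeR, n = 6 each). Every bar is at least 1.42 long on each side.

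Of 13 genes of the defensin-like and WAP (whey acidic protein) host-defence kind in the epididymis, 12 were tested and 0 called in either direction. The share to set beside this list and those that follow is 6.23%, called by edgeR over all genes. Spag11b, a defensin-like gene that encodes a sperm-binding peptide, was at 1.89 to 2480 CPM with epinephrine and at 1.09 to 4646 CPM with vehicle (log2 fold change -0.47, SE 1.91, edgeR adjusted p = 0.956). Wfdc10 and Wfdc13 had log2 fold changes of 0.24 and 0.38 (SE 1.71 and 1.80). Of 23 epididymal epithelium markers 21 were tested and 0 called, among them Gpx5, Adam7 and Lcn8 (log2 fold changes -0.14, 0.22 and -0.10, SE 1.93, 1.71 and 1.92). With errors this large, the absence of calls does not show that these genes did not change. Among 12 other antimicrobial genes 8 were tested and 0 called. Of these, Lcn2, which withholds iron from bacteria, was at 31.3 to 2136 CPM with epinephrine and at 29.6 to 2801 CPM with vehicle, while the lysozyme genes Lyz2 and Lyz1, known from macrophages, had log2 fold changes of -0.05 and -0.03. Of 6 genes for receptors that single beta-defensins have been reported to act on, 3 were tested and 0 called. Ccr2, at a log2 fold change of -0.94 (SE 0.32, edgeR adjusted p = 0.127), had an unadjusted p under 0.05, as did 17.2% of all genes. Tlr2 and Tlr4 were at -1.52 (SE 0.78) and -0.23 (SE 0.24).

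Of 10 testis and sperm markers 9 were tested and 0 called, and their sum was 4.52 to 205 CPM with epinephrine and 1.80 to 114 CPM with vehicle. Prm2, a protamine of sperm, was at 36.9, 27.8, 31.0, 0.922, 7.37 and 3.42 CPM in Epinephrine 1 to 6 and at 11.0, 33.7, 6.54, 0.869, 0.130 and 0 CPM in Vehicle 1 to 6. The 7 general epithelial, 10 adipocyte and 6 mesothelial markers were all tested, with 0 called in each list, beside the same 6.23% of all genes. The epithelial adhesion gene Epcam was at 189, 118, 38.8, 3.07, 26.1 and 17.6 CPM in Epinephrine 1 to 6 and at 54.8, 210, 46.2, 6.02, 2.28 and 1.53 CPM in Vehicle 1 to 6. The keratin genes Krt8 and Krt19 had log2 fold changes of 0.69 and -0.08, Smcp and Odf1 of sperm 1.16 and 0.97, the adipocyte genes Cfd, Fabp4 and Plin4 -0.31, 0.19 and 0.26, and the mesothelial genes Upk3b and Lrrn4 -0.36 and -0.45. Epcam was higher in Epinephrine 5 and 6 than in Epinephrine 4, where the beta-defensins were higher.

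The genes that followed the beta-defensin sum most closely were looked for among 13968 named genes that are no members and have a mean of at least 1 CPM. The measure was the SD of the difference in log2 CPM over the 11 libraries with at least 100 beta-defensin reads. The 5 closest were Muc15 (SD 0.33), a membrane mucin gene, Wfdc10 (0.33), a WAP-domain gene, Foxi1 (0.36), a transcription factor gene of proton-secreting epithelial cells, Ceacam10 (0.36) and Adam7 (0.38). The median over all genes compared was 3.70, and Fabp4, the fatty acid carrier of adipocytes, had 4.12. Gpx5 and Lcn5, 2 frequent epididymal markers, had 2.17 and 1.24. Muc15 was picked as the closest of all genes compared, so its lead over them is given by that choice. Foxi1 was at 0 to 0.219 CPM in Epinephrine 4 to 6, where the prior count sets much of its log2 CPM. Muc15 was at 497, 247, 112, 4.70, 1.59 and 0.281 CPM in Epinephrine 1 to 6 and at 70.9, 453, 95.3, 13.1, 1.496 and 0.206 CPM in Vehicle 1 to 6.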

How the data were processed

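Total RNA of eWAT was purified with TRIzol and an RNeasy kit and sequenced from SMARTER mRNA-Seq libraries, per the labels' protocols. The submitters' processing notes name the tools FastQC, cutadapt, HISAT2, featureCounts, DESeq2 and, as build, mm10. The sources used here give no versions, strand setting or annotation. The authors deposited whole-number counts per gene, not normalized, with gene lengths. They also deposited variance-stabilized (VST) values, on a scale like log2, of 20185 genes, 36 of them beta-defensins.

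Genes were filtered with filterByExpr (minimum count 10, minimum total 15), scaled by TMM and tested on the whole table with edgeR 4.0.16 (quasi-likelihood F test, robust, R 4.3.3), with Benjamini-Hochberg adjustment over all genes tested and a threshold of 0.05. The procedure was tested on simulated counts with changed genes drawn from all genes tested, which gives no measure of power for this family. CPM use TMM-scaled library sizes, and log2 CPM a prior count of 1. DESeq2 1.42.0, limma 3.58.1 and the other alternatives are in the closing section. Members were matched to RefSeq by Entrez identifier (43 of 43) and transcripts were aligned with blastn. The spans of 5 members overlap a lncRNA or pseudogene (Defb13, Defb14, Defb36, Defb37, Defb41), so their reads may include it.

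Members and gene lists were chosen with earlier results of these data known. By rule, the text names any member past the threshold, the 10 with the highest mean CPM, Defb1, the 4 others with the smallest p, the 5 genes closest to the family's sum, and the 3 highest genes of each list. Other genes are examples chosen after their values were seen. Each title gives a replicate number, and libraries with the same number in both groups deviated together from their group means (r across genes 0.262 to 0.799 in 6 pairs). Only 3 of 12 libraries, however, correlated best with their own number. The r values between different numbers are not given here, so these do not show that libraries of 1 number belong together.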

Additional observations from a re-analysis of the deposited data

Results flagged for a closer look

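In groups of 6 libraries, the highest value stood far from the rest for 19 of the 34 sets of values looked at. The rule used flags about 1 in 20 by chance only for independent sets of normally spread values. Levels were taken here as CPM without logs, and the sets share libraries, so this rate is no measure for the 19. The count only lists where 1 library stood out and does not show an excess over chance. Vehicle 2 was the library that stood out in 10 of the sets. The summed beta-defensin level was 8002 CPM there, with the next vehicle library at 1561 CPM. Defb20 was at 2553 CPM, Defb48 at 1575, Defb42 at 940, Defb25 at 884, Defb47 at 629, Defb18 at 362, Defb12 at 108, Defb15 at 78.8 and Defb1 at 18.8 CPM in Vehicle 2. In Vehicle 1, Defb22 was at 89.8 CPM and Defb11 at 6.38 CPM, against 2.67 and 1.99 CPM in the next vehicle library.

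In Epinephrine 1, Defb12 was at 422 CPM, Defb22 at 394, Defb15 at 263, Defb37 at 77.9 and Defb11 at 18.6 CPM, where the next epinephrine library had 49.1, 5.01, 41.3, 7.10 and 1.76 CPM. In Epinephrine 2, Defb47 was at 535 CPM and Defb18 at 218 CPM, against 112 and 41.7 CPM in the next library. These members share libraries and are not independent of each other. Epididymal markers were high in the same libraries, and their part in these values was not tested.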

How the results depend on the processing

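No beta-defensin gene was called in the fits with RLE or library-size scaling, without a filter, with a mean CPM of at least 1, with DESeq2, limma-voom or limma on VST values, without Vehicle 2, Epinephrine 1 and Epinephrine 2, within numbers 1 to 3 (where 0% of all genes were called) or 4 to 6, or without any single library (0 higher and 0 lower in each). Over all genes, edgeR called 461 higher and 447 lower of 16175 with RLE scaling, and 361 and 1466 of 16175 with library-size scaling. It called 375 and 466 of 22945 without a filter, and 410 and 563 of 14912 with a mean CPM of at least 1. Without 1 library at a time it called 317 to 549 genes higher and 276 to 797 lower. With the replicate number as a block 1 was called higher (Defb22; 4.64% of all genes called), and with the epididymal list as a covariate 1 was called lower (Defb45; 10.5% of all genes). The block changed no other call. Defb22 and Defb11 got no adjusted p from DESeq2, so it could not call them. In an alternative chosen after seeing the data, the blocked fit without 1 replicate number at a time called 0 to 1 higher (Defb22) and 0 to 1 lower (Defb45, without number 1). Over all genes these fits called 172 to 562 higher and 27 to 537 lower, of 15993 to 16338 genes tested. The direction of the fitted changes is not stable, and all 15 named members changed sign somewhere. The log2 fold changes with the opposite sign were, with library-size scaling, which moved the median of all genes to -0.11, Defb48 -0.056, Defb25 -0.088; with the replicate block, Defb48 -0.26, Defb25 -0.37; with the epididymal covariate, Defb48 -0.29, Defb42 -0.34, Defb25 -0.31, Defb30 -0.11, Defb22 -2.12, Defb1 -0.31, Defb37 -0.83, Defb11 -1.05, Defb39 -0.13; with limma-voom, Defb48 -0.91, Defb42 -0.94, Defb25 -0.95, Defb22 -0.41, Defb1 -0.70, Defb37 -0.71, Defb15 -0.59, Defb11 -0.013; with VST values, Defb20 0.072, Defb47 0.0063; without Vehicle 2, Epinephrine 1 and Epinephrine 2, Defb48 -2.38, Defb42 -0.44, Defb25 -2.21, Defb22 -4.26, Defb1 -0.70; and within numbers 4 to 6, Defb48 -1.71, Defb42 -1.32, Defb25 -1.76, Defb12 -0.29, Defb15 -0.62. Leaving out 1 library at a time gave Defb20 -1.52 to 1.95, Defb48 -0.73 to 2.29, Defb42 -0.48 to 1.93, Defb25 -0.95 to 2.24, Defb30 0.032 to 1.73, Defb47 -2.20 to 2.00, Defb23 -0.95 to 0.54, Defb18 -2.83 to 1.48, Defb12 -0.67 to 3.48, Defb22 -3.14 to 6.36, Defb1 -0.32 to 1.99, Defb37 -0.98 to 2.60, Defb15 -0.87 to 2.86, Defb11 -1.10 to 2.86, Defb39 -0.13 to 1.71. The median number of members detected was 22.5 with epinephrine at 10 reads, 27 to 35 with epinephrine and 29 to 34 with vehicle without 1 library, and the median sum was 55.4 to 1184 CPM and 213 to 1312 CPM. Thinning each library to the smallest total left the number of members detected nearly as it was.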
